A study of Mus musculus with 20 samples.

Results

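A set of 9 genes of blood coagulation and fibrinolysis was followed across 5 mouse macrophage populations: F13a1, F7, F10, F5, F3, Thbd, Tfpi, Plau and Plaur. They were chosen by symbol, and all 9 were among the 24421 gene symbols of the count tables. Total RNA was sequenced from macrophages of C57BL/6JRj mice, for which the labels name no treatment or altered gene. The 20 libraries fall into 5 groups of 4: dura macrophages with high MHC class II, dura macrophages with low MHC class II (titled "int", with "lo" as the cell type), choroid plexus macrophages, peritoneal macrophages and microglia. The microglia replicates carry the numbers 1, 3, 4 and 5. The sources used here give no age, sex or method of isolation. No label says that replicates were separate animals, so the p-values measure only the spread between these libraries, which may be technical.

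Coagulation starts when tissue factor, encoded by F3, binds factor VII on a cell surface. This complex activates factor X, and activated factor X with its cofactor factor V turns prothrombin into thrombin. Thrombin makes fibrin, which factor XIII crosslinks. Tissue factor pathway inhibitor (Tfpi) blocks the starting complex, and thrombomodulin (Thbd) redirects thrombin to activate protein C. Urokinase (Plau), held at the cell surface by its receptor (Plaur), activates plasminogen, whose product plasmin dissolves fibrin. The liver makes most circulating clotting factors, and macrophages are a known source of the factor XIII A subunit and of tissue factor.

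Each library had 13383274 to 32611875 gene counts and counts for 13111 to 15446 genes. Levels are in CPM, counts per 1e+06 gene counts of a library after TMM scaling. The labelled populations were checked against their markers. Microglia markers (Tmem119, P2ry12, Sall1) summed to 9553 to 13263 CPM in microglia and 1020 to 1230 CPM in choroid plexus. They summed to 400 to 537 CPM in the dura and 25.2 to 29.9 CPM in peritoneal libraries. Choroid plexus macrophages had no marker list of their own. Border macrophage markers (Mrc1, Pf4, Ms4a7, Lyve1) summed to 2447 to 2759 CPM there and 3527 to 6371 CPM in the dura. Their sums were 754 to 1865 CPM in peritoneal libraries and 17.2 to 22.4 CPM in microglia. Large peritoneal macrophage markers (Gata6, Icam2, Alox15, Selp) summed to 13362 to 16297 CPM in peritoneal libraries and at most 15.6 CPM elsewhere. MHC class II genes summed to 52461 to 58906 CPM in MHC II-high dura, 2089 to 2320 CPM in MHC II-low dura and 43652 to 61463 CPM in choroid plexus. Microglia replicate 3 stood apart: 8 markers of choroid plexus epithelium, led by Ttr, summed to 20167 CPM there against 65.8 to 709 CPM in the other microglia libraries and 3938 to 7433 CPM in choroid plexus macrophages. Fibroblast markers were also high in that library (974 CPM against 13.9 to 43.5 CPM in the other microglia) and in choroid plexus replicate 4 (1212 CPM against 456 to 633 CPM in the other choroid plexus libraries). In bulk libraries, fewer cells of a type and less RNA per cell cannot be told apart.

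The genes divided by population. F7, F10, F5 and Plaur were highest in peritoneal macrophages, F3 in choroid plexus macrophages, and F13a1 in both dura populations. Microglia had the lowest F13a1 and Thbd, and peritoneal macrophages the lowest Plau. A gene is called different when its adjusted p is under 0.05 and its change is at least 2-fold, by edgeR's quasi-likelihood test with Benjamini-Hochberg adjustment over the 13960 genes tested. All 9 members were tested and all 9 were called in at least 1 of the 10 pairwise comparisons, against 59.1% of all genes. F7 and F10 passed the filter on low counts through their peritoneal libraries, so a difference from that population was built into their being tested.

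**Figure D1:**
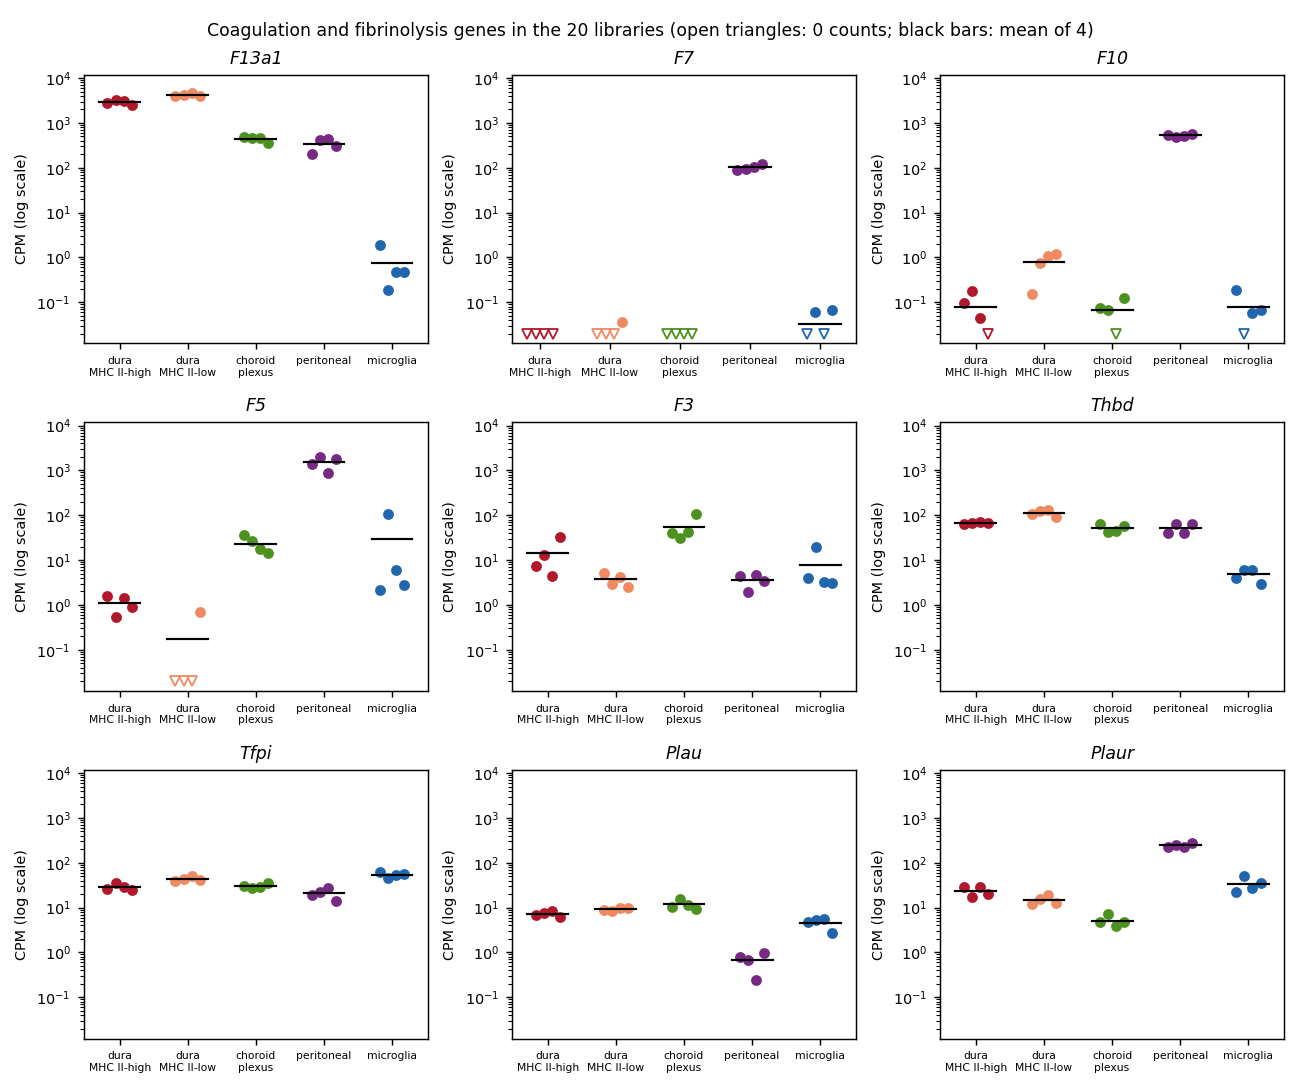
Level of each of the 9 genes in every library, in CPM on a log scale, by population; open triangles are libraries with 0 counts and black bars are means of 4 libraries. F7, F10, F5 and Plaur are highest in the peritoneal libraries, and F13a1 lies between 2461 and 4621 CPM in the dura libraries and at most 1.88 CPM in microglia.

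The 4 genes F7, F10, F5 and Plaur were called higher in peritoneal macrophages than in each other population, where 6.02% of all genes were. For F7 and F10, which passed the filter on low counts through that population, such a difference was built in. F3 was called higher in choroid plexus macrophages than in each other population, where 0.745% of genes were. None of the members was called higher in MHC II-high dura (0.272% of genes), MHC II-low dura (0.265%) or microglia (4.04%) than in each other population. F13a1 and Thbd were called lower in microglia than in each other population, against 5.95% of genes. Plau was called lower in peritoneal macrophages than in each other population, against 12.2% of genes, and Plaur lower in choroid plexus macrophages, against 0.179%.

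Between the dura populations, only F10 of the 9 members was called (3.88% of all genes were): 0 members were higher in MHC II-high dura (2.39% of genes) and F10 was higher in MHC II-low dura (1.48%). F10 had 8 counts in MHC II-high dura and 88 in MHC II-low dura, and passed the filter on low counts through its peritoneal libraries. Between MHC II-high dura and choroid plexus, 4 members were called (9.88%): F13a1 and Plaur were higher in the dura (4%) and F5 and F3 in the choroid plexus (5.87%). MHC II-low dura differed from choroid plexus in 6 members (12.8%), with F13a1, F10, Thbd and Plaur higher in the dura (4.18%) and F5 and F3 higher in the choroid plexus (8.63%). The members' median log2 difference was 0.00 for MHC II-high dura over choroid plexus and 1.13 for MHC II-low dura over choroid plexus, each against -0.01 for all genes. The median of 0.00 is the value of F7, which had 0 counts in both groups, so it measures no lack of difference.

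Against peritoneal macrophages, 7 members were called in MHC II-high dura (29.2%): F13a1, F3 and Plau were higher in the dura (20.1%) and F7, F10, F5 and Plaur lower (9.18%). In MHC II-low dura it was 8 members (31.9%), with F13a1, Thbd, Tfpi and Plau higher in the dura (20%) and the same 4 genes lower (11.9%). In choroid plexus it was 6 members (36.7%), with F3 and Plau higher (24.1%) and the same 4 genes lower (12.6%). The comparisons share their peritoneal libraries.

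Against microglia, 3 members were called in MHC II-high dura (27.9%): F13a1 and Thbd were higher in the dura (15.7%) and F5 was higher in microglia (12.2%). In MHC II-low dura 5 members were called (26.5%), with F13a1, F10 and Thbd higher in the dura (13.8%) and F5 and Plaur higher in microglia (12.7%). In choroid plexus 5 members were called (19.2%), with F13a1, F3, Thbd and Plau higher (12.1%) and Plaur higher in microglia (7.11%). Peritoneal macrophages differed from microglia in 8 members (44.6%), with F13a1, F7, F10, F5, Thbd and Plaur higher in peritoneal macrophages (18.9%) and Tfpi and Plau higher in microglia (25.7%). For this last comparison the members' median log2 difference was 3.44, against -0.11 for all genes.

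**Figure D2:**
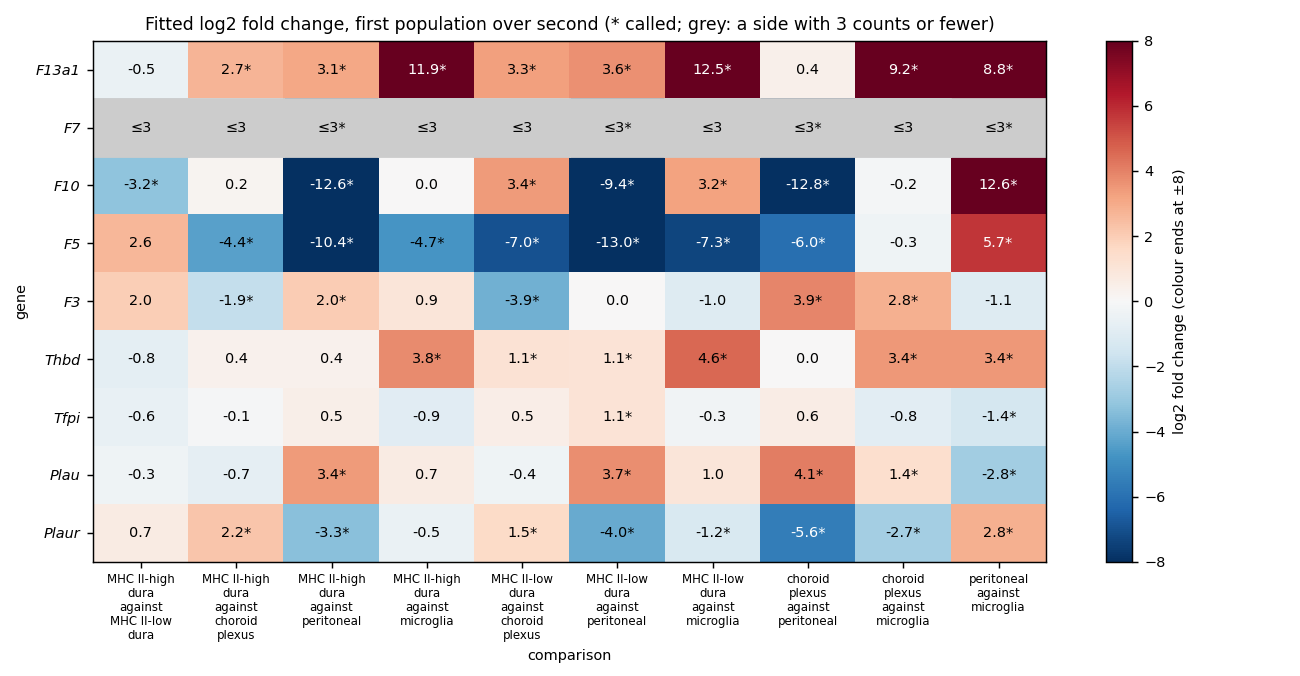
Fitted log2 fold change of each gene in the 10 pairwise comparisons, with positive values higher in the population named at the top of the label; asterisks mark calls, and grey cells have 3 counts or fewer on a side. Calls against the peritoneal libraries include F7, F10, F5 and Plaur in all 4 comparisons, and F13a1 over microglia reaches 12.46 in MHC II-low dura.

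Tissue factor is the membrane receptor that starts coagulation. F3 lies on chromosome 3 at 121723537 to 121735048 (GRCm38, plus strand). It stood at 39.9, 30.4, 41.8 and 104 CPM in choroid plexus replicates 1 to 4, and at 7.43, 13, 4.48 and 33.5 CPM in those of MHC II-high dura. The 2 groups overlapped, because replicate 4 of MHC II-high dura lay above the lowest choroid plexus library. F3 was 5.26, 2.99, 4.15 and 2.54 CPM in MHC II-low dura. Peritoneal macrophages had 4.32, 1.93, 4.76 and 3.47 CPM, and microglia 4.01, 20, 3.18 and 3.11 CPM in replicates 1, 3, 4 and 5. All choroid plexus libraries exceeded every library of these 3 populations. The mean was 53.9 ± 33.5 CPM (SD, n = 4) in choroid plexus and 14.6 ± 13.1 CPM in MHC II-high dura, a log2 difference of -1.89 ± 0.66 (approximate standard error) for the dura over the choroid plexus, with an edgeR adjusted p of 0.0435. Choroid plexus exceeded MHC II-low dura by 3.85 ± 0.72 (adjusted p = 0.00074), peritoneal macrophages by 3.89 ± 0.72 (adjusted p = 0.000177) and microglia by 2.83 ± 0.69 (adjusted p = 0.00309) on the log2 scale.

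MHC II-high dura also exceeded peritoneal macrophages in F3 (2.01 ± 0.68, adjusted p = 0.0193), although the groups overlapped. In the order of F3 levels, MHC II-high dura, microglia, MHC II-low dura and peritoneal macrophages did not differ from the next in the test. The call between choroid plexus and MHC II-high dura was lost when any of 11 single libraries was left out, namely replicate 1, 2 or 3 of either dura population, 1, 3 or 4 of choroid plexus, or 1 or 4 of the peritoneal group (adjusted p of 0.0501 to 0.156). Without choroid plexus replicate 4 the dura difference was -1.36 (adjusted p = 0.156), and without MHC II-high dura replicate 4 it was -2.71 (adjusted p = 0.0103). Without MHC II-high dura replicate 4 the difference from peritoneal macrophages was 1.19 (adjusted p = 0.125), and without peritoneal replicate 2 it was 1.80 (adjusted p = 0.0558). Without microglia replicate 3, choroid plexus exceeded microglia by 3.91 (adjusted p = 0.000132) and MHC II-high dura was called higher than microglia (2.02, adjusted p = 0.0121). The dura populations were not called different with all libraries (1.97 ± 0.68 for the high over the low, adjusted p = 0.0748), and were without microglia replicate 3 (adjusted p = 0.023) or MHC II-high dura replicate 3 (2.27, adjusted p = 0.0466).

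Fibroblast markers moved with F3 in part of the libraries. The 8 markers summed to 633, 456, 612 and 1212 CPM in choroid plexus replicates 1 to 4, and the library with the most of them had the most F3. Microglia replicate 3, at 974 CPM, had the most F3 of the microglia. In MHC II-high dura the markers summed to 165, 316, 332 and 244 CPM in replicates 1 to 4, and the library with the most F3, replicate 4, did not have the most of them. MHC II-low dura had 152 to 220 CPM of these markers, and peritoneal libraries at most 1.75 CPM with Dcn, Lum and Pdgfra at 0. The part of fibroblast RNA in the F3 differences was not tested.

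Factor VII is the protease that tissue factor binds. F7 lies on chromosome 8 at 13026034 to 13035809 (plus strand). Peritoneal libraries had 88.1, 94.6, 103 and 122 CPM in replicates 1 to 4, a mean of 102 ± 14.7 CPM (SD, n = 4) from 10983 counts. Outside these libraries F7 was at or near 0. It had 0 counts in all 4 MHC II-high dura libraries and all 4 choroid plexus libraries, where 3 counts would be 0.0978 to 0.134 CPM and 0.191 to 0.222 CPM. MHC II-low dura had 1 count, in replicate 4, and microglia had 2 counts, in replicates 3 and 5. Set against 3 counts over the group, peritoneal F7 was at least 3418-fold higher than in MHC II-high dura and at least 1994-fold higher than in choroid plexus. The ratio to MHC II-low dura was 11358 (95% exact counting interval 2038 to 448663), or at least 2831-fold without replicate 4 of that group. The ratio to microglia was 3261 (902 to 26930), or 4993 (896 to 197231) without microglia replicate 5. Peritoneal F7 was called higher against each population, with edgeR adjusted p of 1.3e-12 for MHC II-high dura, 1.06e-12 for MHC II-low dura, 2.02e-12 for choroid plexus and 1.2e-12 for microglia. F7 passed the filter on low counts through its peritoneal libraries, so a difference from them was built into its being tested. The intervals and floors cover counting error only.

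Factor X is the protease that the starting complex activates. F10 lies on chromosome 8 at 13037308 to 13056676, on the same strand as F7 and 1498 bases beyond its end, with no annotated gene between them. Peritoneal libraries had 539, 492, 511 and 561 CPM, a mean of 526 ± 30.4 CPM (SD, n = 4) from 57007 counts. MHC II-low dura had 0.151, 0.739, 1.06 and 1.16 CPM, from 88 counts. MHC II-high dura had 0.0978, 0.178, 0.0435 and 0 CPM, choroid plexus 0.0739, 0.0659, 0 and 0.127 CPM, and microglia 0.188, 0, 0.0579 and 0.0661 CPM. These 3 groups held 8, 4 and 5 counts in all. The peritoneal libraries exceeded all others, by a log2 difference of 12.60 ± 0.43 over MHC II-high dura (adjusted p = 1.65e-14) and 9.38 ± 0.35 over MHC II-low dura (adjusted p = 4.33e-14). As for F7, a difference from the peritoneal libraries was built into F10 being tested.

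At this low level F10 was also called between the dura populations, with MHC II-high dura lower by -3.22 ± 0.59 on the log2 scale (adjusted p = 0.00127). F10 was tested here because it passed the filter on low counts through its peritoneal libraries. Fits of 2 populations gave no value for F10 in 6 comparisons, and 0 members were then called between the dura populations. MHC II-low dura replicate 1, at 0.151 CPM, lay within the range of MHC II-high dura, so the groups overlapped. MHC II-low dura was also called higher than choroid plexus by 3.43 ± 0.72 (adjusted p = 0.00155), without overlap, and than microglia by 3.24 ± 0.68 (adjusted p = 0.000604), with overlap. Without MHC II-high dura replicate 2 the dura difference was -3.81 (adjusted p = 0.00172) and the difference from peritoneal macrophages was -13.2. Without microglia replicate 1 the differences from microglia were 4.04 for MHC II-low dura and 13.44 for peritoneal macrophages.

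Factor V is the cofactor of activated factor X. F5 lies on chromosome 1 at 164151838 to 164220277 (plus strand), and 3.53% of its exon bases overlap a gene on the other strand. Peritoneal libraries had 1423, 2011, 868 and 1764 CPM, a mean of 1516 ± 495 CPM (SD, n = 4). Choroid plexus had 35.4, 26.4, 17.3 and 14.1 CPM, and MHC II-high dura 1.6, 0.535, 1.39 and 0.905 CPM. Microglia had 2.13, 107, 5.96 and 2.78 CPM in replicates 1, 3, 4 and 5, so replicate 3 lay far above the rest. The values in MHC II-low dura were 0, 0, 0 and 0.705 CPM, all 20 counts coming from replicate 4. Every peritoneal library exceeded every other library. On the log2 scale peritoneal macrophages were higher than choroid plexus by 6.03 ± 1.09 (adjusted p = 0.000152), than microglia by 5.69 ± 1.07 (adjusted p = 0.000175), than MHC II-high dura by 10.39 ± 1.35 (adjusted p = 6.11e-06) and than MHC II-low dura by 13.01 ± 1.56 (adjusted p = 2.15e-06).

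Both dura populations had less F5 than choroid plexus and than microglia. MHC II-high dura was lower than choroid plexus by -4.36 ± 1.13 (adjusted p = 0.0102) and than microglia by -4.70 ± 1.13 (adjusted p = 0.0023). MHC II-low dura was lower than choroid plexus by -6.99 ± 1.42 (adjusted p = 0.00158) and than microglia by -7.33 ± 1.42 (adjusted p = 0.000413). Without MHC II-low dura replicate 4 that group had 0 counts, and set against 3 counts F5 was at least 41929-fold higher in peritoneal macrophages, at least 642-fold in choroid plexus and at least 829-fold in microglia. Without microglia replicate 3 the differences from microglia were -1.76 for MHC II-high dura (adjusted p = 0.0304), -4.39 for MHC II-low dura (adjusted p = 0.000378) and 8.66 for peritoneal macrophages (adjusted p = 1.69e-08). Choroid plexus and microglia were not called different with all libraries (-0.34 ± 0.91, adjusted p = 0.809), while without microglia replicate 3 choroid plexus was called higher by 2.60 (adjusted p = 0.00148).

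Markers of choroid plexus epithelium moved with F5 in part of the libraries outside the peritoneal cavity. In microglia they summed to 65.8, 20167, 709 and 327 CPM in replicates 1, 3, 4 and 5, the same order of libraries as for F5. Choroid plexus had 7433, 4886, 5502 and 3938 CPM, and MHC II-low dura 6.33 to 20.9 CPM. In MHC II-high dura the markers summed to 14, 9.14, 17.7 and 30.6 CPM in replicates 1 to 4. The library with the most F5 there, replicate 1, did not have the most of these markers. In MHC II-low dura the only library with F5 counts had the most of these markers. The part of epithelial RNA in the F5 values of these 4 populations was not tested. In peritoneal libraries the 8 markers summed to 0 to 0.448 CPM, with Ttr, Kl, Clic6 and Cldn2 at 0, while F5 was highest there.

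**Figure D3:**
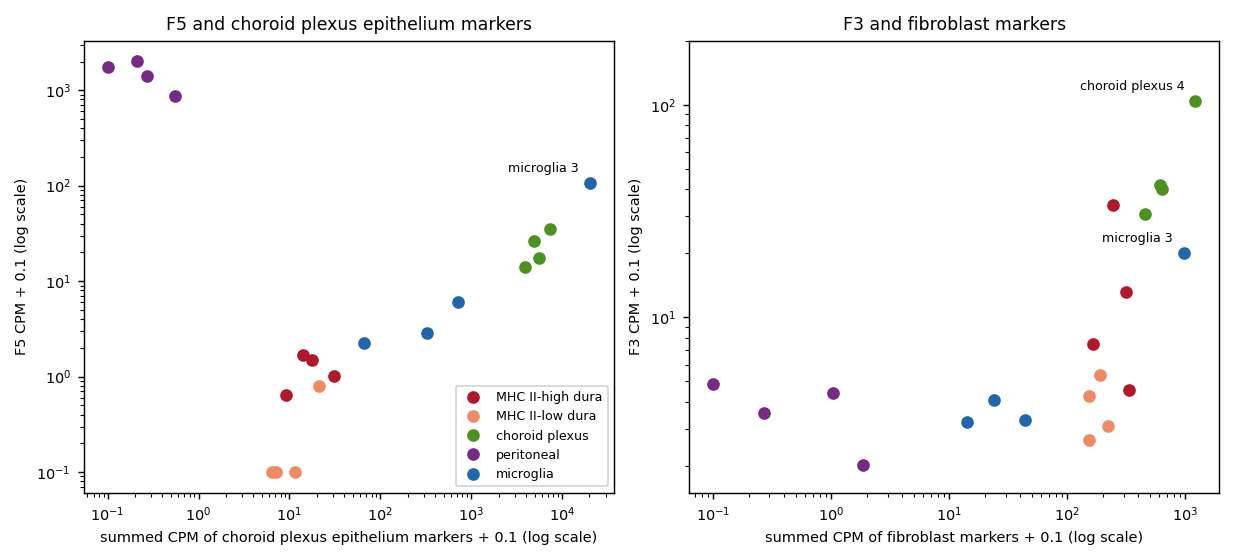
Left, F5 against the summed choroid plexus epithelium markers; right, F3 against the summed fibroblast markers; each point is a library, in CPM plus 0.1 on log scales. The peritoneal libraries have 868 to 2011 CPM of F5 with at most 0.448 CPM of epithelium markers, and microglia replicate 3 and choroid plexus replicate 4 are named.

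The F7, F10, F5 and Plaur promoters are shown because these 4 genes were higher together in peritoneal macrophages. Sequences are the 250 bases before each gene's start in RefSeq (GRCm38.p6), which held an entry for 7 of the 9 members, F7, F10, F5, F3, Tfpi, Plaur and F13a1, in 9 windows. Capitals mark matches to 5 motifs, which were chosen after the expression values were seen and searched on both strands. They were AGATAA, a motif known for the GATA factors, and TGANTCA, known for the AP-1 family. The other 3 were TTGCNNAA for the C/EBP factors, AGGTCA for nuclear receptors, and GAGGAAGT for the myeloid factor PU.1. No motif overlapped another in the windows shown.
F7 promoter, chr8:13025784-13026033, plus strand: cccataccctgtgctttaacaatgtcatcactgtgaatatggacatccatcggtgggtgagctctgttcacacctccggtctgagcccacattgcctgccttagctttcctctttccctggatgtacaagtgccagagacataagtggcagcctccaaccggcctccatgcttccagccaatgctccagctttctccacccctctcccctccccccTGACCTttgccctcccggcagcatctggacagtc
F10 promoter, chr8:13037058-13037307, plus strand: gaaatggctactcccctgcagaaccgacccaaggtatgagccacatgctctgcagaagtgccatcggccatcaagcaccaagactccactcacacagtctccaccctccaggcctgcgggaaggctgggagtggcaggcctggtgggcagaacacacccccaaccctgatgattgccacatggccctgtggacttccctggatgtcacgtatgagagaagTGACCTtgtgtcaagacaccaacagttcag
F5 promoter, chr1:164151585-164151834, plus strand: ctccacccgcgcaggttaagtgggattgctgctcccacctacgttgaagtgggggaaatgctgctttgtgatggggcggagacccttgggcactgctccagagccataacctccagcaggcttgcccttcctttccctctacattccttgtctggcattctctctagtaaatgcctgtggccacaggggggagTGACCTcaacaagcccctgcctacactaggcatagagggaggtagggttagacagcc
Plaur promoter, chr7:24462233-24462482, plus strand: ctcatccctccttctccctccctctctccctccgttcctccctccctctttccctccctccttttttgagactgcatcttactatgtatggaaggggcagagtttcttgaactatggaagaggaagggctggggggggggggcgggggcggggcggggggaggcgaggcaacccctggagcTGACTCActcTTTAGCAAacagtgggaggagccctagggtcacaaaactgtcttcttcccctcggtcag
In F7, F10 and F5 the capitals are TGACCT, which is AGGTCA on the other strand. It lies 34 to 29 bases before the start in F7, 30 to 25 in F10 and 57 to 52 in F5. Of the 32851 windows of this length in the RefSeq table, 14% hold that motif on either strand. The Plaur window has TGACTCA, an AP-1 match, at 69 to 63 bases, a motif in 6.75% of windows, and TTTAGCAA, a C/EBP match on the other strand, at 59 to 52 bases, in 9.56% of windows. The F3 window holds 2 AP-1 matches, TGAATCA at 146 to 140 and TGAGTCA at 135 to 129 bases. A Tfpi window holds AGATAA, which is in 9.99% of windows. No member window holds GAGGAAGT, which is in 2.44%, and the F13a1 windows hold none of the 5. These are matches of letters, and no binding was measured.

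The genes beside F7 and F10 did not share their large peritoneal difference. Mcf2l, Proz, Pcid2, Cul4a and Lamp1 were not called in any comparison with peritoneal macrophages. Cul4a was higher in the peritoneal libraries (mean 89.2 CPM) than in all others (means of 63.5 to 74 CPM), without overlap. Its edgeR adjusted p was 0.000101 to 0.0174, but the change was under 2-fold. Proz, which encodes the clotting regulator protein Z, had 1.4 ± 0.414 CPM (SD, n = 4) in peritoneal libraries and 0.598 to 0.924 CPM as a mean elsewhere. Beside F5, the selectin gene Selp (1036 ± 178 CPM) was called higher in peritoneal macrophages than in each other population, in which its mean was at most 0.321 CPM. Like F7 and F10, Selp passed the filter on low counts through its peritoneal libraries. Slc19a2, a thiamine transporter gene on the other flank, had 14.9 ± 1.89 CPM in peritoneal macrophages and was called there only against microglia (1.49 ± 0.25 on the log2 scale, adjusted p = 2.26e-05). Sele was too low to be tested.

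Factor XIII A is the transglutaminase that crosslinks fibrin. F13a1 lies on chromosome 13 at 36867178 to 37050244 (minus strand), and 1.1% of its exon bases overlap a gene on the other strand. MHC II-low dura had 4009, 4253, 4621 and 4019 CPM and MHC II-high dura 2805, 3204, 3134 and 2461 CPM. The 2 dura populations did not overlap, but their log2 difference of -0.54 ± 0.27 did not pass the test (adjusted p = 0.228). Choroid plexus had 481, 472, 452 and 365 CPM and peritoneal macrophages 201, 406, 439 and 311 CPM. These groups overlapped and did not differ in the test (0.38 ± 0.27, adjusted p = 0.225). Microglia had 1.88, 0.185, 0.463 and 0.463 CPM, 48 counts in all.

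The dura libraries thus held several times the F13a1 level of the choroid plexus and peritoneal libraries, with no overlap. MHC II-high dura exceeded choroid plexus by 2.71 ± 0.29 (adjusted p = 2.77e-06) and peritoneal macrophages by 3.10 ± 0.29 (adjusted p = 4e-08). MHC II-low dura exceeded them by 3.26 ± 0.29 (adjusted p = 1.92e-07) and 3.64 ± 0.30 (adjusted p = 4.75e-09). Every other population exceeded microglia, by 12.46 ± 0.45 in MHC II-low dura, 11.92 ± 0.45 in MHC II-high dura, 9.20 ± 0.42 in choroid plexus and 8.82 ± 0.41 in peritoneal macrophages, with adjusted p of at most 1.65e-12. Without microglia replicate 1, the highest of that group, these became 13.42, 12.86, 10.14 and 9.79. Platelets also carry factor XIII A and factor V. Markers of platelets and megakaryocytes summed to 9.36 to 15.4 CPM in the high and 3.21 to 6.59 CPM in the low dura population, 2.66 to 5.76 CPM in choroid plexus, 0.0364 to 1.48 CPM in peritoneal macrophages and 24.7 to 39.8 CPM in microglia, where nearly all of it was Gp9 (mean 30.5 CPM). The platelet chemokine gene Ppbp averaged 7.44 CPM in the high and 3.38 CPM in the low dura population, 2.76 CPM in choroid plexus and 0.0463 CPM in microglia, and had 0 counts in peritoneal macrophages. Monocytes carry factor XIII A too, and their 7 markers summed to 1071 to 1270 CPM in MHC II-high dura and 95.2 to 181 CPM in MHC II-low dura. Nearly all of the difference was Ccr2, with means of 1132 and 106 CPM. Plac8, Chil3, Ace and Treml4 had means of 7.56, 2.1, 15 and 8.16 CPM in MHC II-low dura against 1.25, 0.0245, 3.24 and 2.53 CPM in MHC II-high dura. The part of platelet and monocyte RNA in the F13a1 differences was not tested.

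Thrombomodulin is the thrombin receptor that turns thrombin toward protein C. Thbd lies on chromosome 2 at 148404466 to 148408188 (minus strand). MHC II-low dura had 106, 122, 134 and 92.8 CPM, above all other libraries. MHC II-high dura had 64.3, 66.7, 69.9 and 67.8 CPM, choroid plexus 63.8, 42.5, 44.2 and 57.8 CPM, and peritoneal macrophages 39.8, 65, 41 and 63 CPM. Microglia had 4.07, 6.11, 6.02 and 2.91 CPM, below all other libraries. MHC II-low dura exceeded choroid plexus by 1.13 ± 0.20 (adjusted p = 0.000264) and peritoneal macrophages by 1.12 ± 0.20 (adjusted p = 6.37e-05) on the log2 scale. Its difference from MHC II-high dura, -0.76 ± 0.19 for the high over the low population, had an adjusted p of 0.0146 but was under 2-fold. Over microglia the log2 differences were 4.57 ± 0.23 in MHC II-low dura, 3.81 ± 0.23 in MHC II-high dura, 3.44 ± 0.23 in choroid plexus and 3.44 ± 0.23 in peritoneal macrophages, with adjusted p of at most 1.88e-10. Choroid plexus and peritoneal macrophages, at 52.1 ± 10.4 and 52.2 ± 13.6 CPM (SD, n = 4), were not told apart (adjusted p = 0.995).

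Tissue factor pathway inhibitor varied least of the 9 genes, by a root mean square of 0.53 on the log2 scale over the 20 libraries. Tfpi lies on chromosome 2 at 84432855 to 84476775 (minus strand). Microglia had 61.2, 45.6, 52.4 and 57.5 CPM, and MHC II-low dura 39.5, 43.9, 50.8 and 40.8 CPM, with overlap. Choroid plexus had 30.6, 27.7, 28.7 and 35.8 CPM, MHC II-high dura 25.6, 36.3, 28.4 and 25.2 CPM, and peritoneal macrophages 19.4, 22, 27.1 and 14.4 CPM. Peritoneal macrophages were called lower than microglia by -1.38 ± 0.16 (adjusted p = 2.77e-07). MHC II-low dura was called higher than peritoneal macrophages by 1.08 ± 0.16 (adjusted p = 1.14e-05), a change that fell below 2-fold without MHC II-low dura replicate 3 (just under 1.00) or peritoneal replicate 4 (0.91). The difference of MHC II-high dura from microglia, -0.91 ± 0.16 (adjusted p = 8.95e-05), was under 2-fold, and passed it without MHC II-high dura replicate 2 (-1.04) or microglia replicate 3 (-1.05).

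Thbd and Tfpi are both also expressed by endothelial cells. The 9 endothelial markers summed to 25.4 to 48.3 CPM in the high and 39.4 to 68 CPM in the low dura population, 94.6 to 121 CPM in choroid plexus and 103 to 144 CPM in microglia. They summed to 1.46 to 3.59 CPM in peritoneal macrophages, with Cldn5, Kdr, Tie1 and Emcn at 0. Single genes carried much of these sums. Egfl7 averaged 46.8 CPM in the low and 9.51 CPM in the high dura population, while the other 8 markers had lower means in the low population. Pecam1 and Cldn5 averaged 40.9 and 23.2 CPM in microglia against 9.81 and 0.45 CPM in choroid plexus, where Kdr, Tie1 and Emcn had 25.7, 11.9 and 24.2 CPM against 18, 9.4 and 4.31 CPM in microglia. The part of endothelial RNA in the Thbd and Tfpi differences was not tested.

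Urokinase is the protease that activates plasminogen at the cell surface. Plau lies on chromosome 14 at 20836660 to 20843385 (plus strand). Choroid plexus had 10.3, 15.8, 11.5 and 9.47 CPM, MHC II-low dura 8.74, 8.23, 9.57 and 9.84 CPM, and MHC II-high dura 6.72, 7.4, 8.52 and 6.33 CPM. Microglia had 4.7, 5.37, 5.5 and 2.78 CPM. Peritoneal macrophages had 0.795, 0.692, 0.241 and 0.986 CPM, 72 counts in all and below every other library. Choroid plexus exceeded peritoneal macrophages by 4.11 ± 0.33 (adjusted p = 1.25e-09) and microglia by 1.36 ± 0.29 (adjusted p = 0.000685). MHC II-low dura exceeded peritoneal macrophages by 3.74 ± 0.32 (adjusted p = 4.15e-09), MHC II-high dura by 3.42 ± 0.32 (adjusted p = 1.78e-08) and microglia by 2.76 ± 0.32 (adjusted p = 1.71e-07). Choroid plexus and the 2 dura populations were not called different from each other, and MHC II-low dura over microglia (0.99 ± 0.28, adjusted p = 0.00678) fell just short of 2-fold, and reached it without MHC II-low dura replicate 1 or 2 or microglia replicate 4 (1.00, 1.03 and 1.05).

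The urokinase receptor went the other way. Plaur lies on chromosome 7 at 24462484 to 24475968 (plus strand). Peritoneal macrophages had 228, 244, 228 and 274 CPM, microglia 21.9, 52, 28 and 35 CPM, and MHC II-high dura 29.4, 17, 29 and 20.5 CPM. In MHC II-low dura Plaur was 12, 15.6, 19.5 and 12.6 CPM, and in choroid plexus 4.8, 7.06, 3.93 and 4.83 CPM. The peritoneal libraries lay above and the choroid plexus libraries below all others. Peritoneal macrophages exceeded choroid plexus by 5.56 ± 0.29 (adjusted p = 3.64e-12), MHC II-low dura by 4.03 ± 0.26 (adjusted p = 1.07e-10), MHC II-high dura by 3.34 ± 0.25 (adjusted p = 1.21e-09) and microglia by 2.83 ± 0.25 (adjusted p = 5.05e-09). Choroid plexus was also lower than microglia by -2.73 ± 0.26 (adjusted p = 7.54e-08), while MHC II-high dura exceeded choroid plexus by 2.22 ± 0.26 (adjusted p = 9.01e-06) and MHC II-low dura did so by 1.53 ± 0.26 (adjusted p = 0.000204). MHC II-low dura was called lower than microglia by -1.20 ± 0.24 (adjusted p = 0.00035), and without microglia replicate 3 the change was -0.99, under 2-fold. Choroid plexus macrophages thus had the highest mean Plau, at 11.8 ± 2.8 CPM (SD, n = 4), with the lowest Plaur, at 5.15 ± 1.34 CPM, and peritoneal macrophages had the lowest Plau, at 0.679 ± 0.316 CPM, with the highest Plaur, at 243 ± 21.9 CPM.

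Levels of different genes are compared here only per kilobase of exon, with lengths from GENCODE M21. In peritoneal macrophages the level per kilobase was 204 CPM for F5 and 192 CPM for F10, followed by 93 CPM for Plaur, 54.8 CPM for F7, 50.3 CPM for F13a1 and 14 CPM for Thbd. Tfpi stood at 3.79 CPM per kilobase there, F3 at 1.43 CPM and Plau at 0.287 CPM. In the dura F13a1 led by far, at 627 CPM per kilobase in MHC II-low and 431 CPM in MHC II-high libraries, with Thbd next at 30.5 and 18 CPM. In choroid plexus F13a1 (65.7 CPM per kilobase) was followed by F3 (21.3 CPM) and Thbd (14 CPM). Microglia had no member above 13.1 CPM per kilobase, the level of Plaur, followed by Tfpi at 9.92 CPM. The spread over libraries was not set against these differences between genes.

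**Figure D4:**
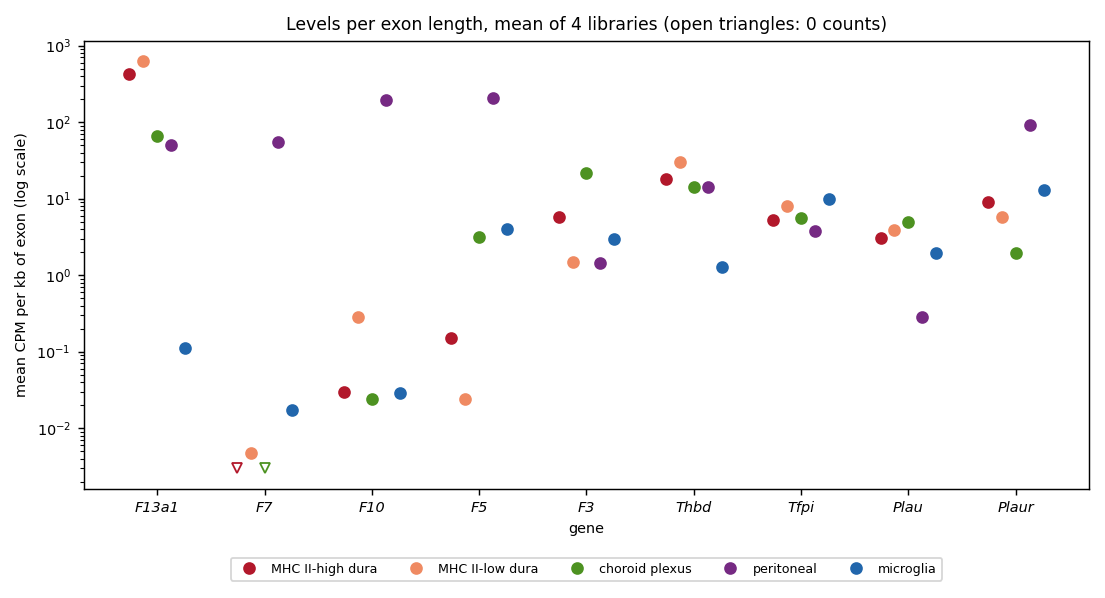
Mean level of each gene per kilobase of exon, in CPM per kilobase on a log scale, with a point for each population (4 libraries each); open triangles stand for 0 counts. F13a1 is the highest member in both dura populations, at 627 and 431 CPM per kilobase, and F5 and F10 lead in peritoneal macrophages, at 204 and 192.

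Genes with the pattern most like each member were found by the root mean square difference of log2 CPM over the 20 libraries, each gene centred on its own mean, among 7828 genes (7829 for Plau) with at least 20 CPM in some population. F13a1 was nearest to Cd163, the haemoglobin scavenger receptor (difference 1.12, where F13a1 itself varied by 4.59), then Tlr8 (1.17) and Clec10a (1.27). Mean Cd163 was 1127 CPM in the low and 671 CPM in the high dura population, 279 CPM in choroid plexus, 29.3 CPM in peritoneal macrophages and 0.434 CPM in microglia. F7 was nearest to Cyp26a1 (0.55), the enzyme that clears retinoic acid, then Vmn2r26 (0.61) and Naip1 (0.65). F10 was nearest to Serpinb10 (0.95), Cd5l (1.04) and Padi4 (1.08). F5 had no close partner, with Cgnl1 at 1.70, Tgfb2 at 1.85 and Cd24a at 1.90. F3 was nearest to Cnn3 (0.88), Nid1 (0.92) and Lpcat4 (0.92), of which Nid1 encodes a basement membrane protein. Thbd was nearest to Gramd3 (0.36), Tgfbi (0.46) and Eps8 (0.46), and Tfpi to Kansl2 (0.24), Mul1 (0.24) and Taz (0.25). Plau was nearest to Rhbdf1 (0.36), Ebi3 (0.36) and Rasa4 (0.44), and Plaur to Htra3 (0.53), Capg (0.66) and Gpr35 (0.72). The libraries fall into 5 groups, so these differences mostly describe 5 population means, and genes of small range come out closer.

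Beyond the 9 members, 62 genes of the same pathways were listed in 7 groups. All 62 were in the files, 43 were tested and 36 were called in at least 1 comparison, which 59.1% of all tested genes were. The 19 genes too low to be tested include prothrombin (F2, 13 counts over all 20 libraries), the fibrinogen chains (Fga, Fgb, Fgg, 0 counts each), F11 and F13b (0 counts), F12 (1 count), protein C (Proc, 3 counts), antithrombin (Serpinc1, 7 counts) and plasminogen itself (Plg, 0 counts).

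Of the 12 other clotting factors and cofactors, F8, F9 and Vwf were tested. F9, the factor IX protease gene, had 15, 12.4, 19.4 and 16 CPM in microglia and at most 6.6 CPM in any other library. Microglia exceeded MHC II-high dura by 2.20 ± 0.47 (adjusted p = 0.000528), choroid plexus by 1.45 ± 0.46 (adjusted p = 0.0148) and peritoneal macrophages by 7.35 ± 0.64 (adjusted p = 3.14e-09). Vwf, the platelet-binding carrier of factor VIII, had 24.3, 2.1, 30.4 and 23.5 CPM in microglia replicates 1, 3, 4 and 5, of which replicate 3 was low. It was called higher in microglia than in MHC II-low dura, choroid plexus and peritoneal macrophages, and over MHC II-high dura the adjusted p was 0.0551. Vwf is also an endothelial gene. The 9 endothelial markers summed to 133, 119, 144 and 103 CPM in the same 4 libraries, lowest in replicate 5 and not in replicate 3. Choroid plexus had 94.6 to 121 CPM of these markers with a mean of 1.09 CPM of Vwf. A single marker, Cldn5, stood at 30.8, 9.75, 33.2 and 19.2 CPM in microglia and at most 1.73 CPM in any other library. The part of endothelial RNA in the Vwf differences was not tested. The 7 genes of the vitamin K cycle and factor secretion, which several clotting factors need to be made and released, were all tested. Between MHC II-high dura and MHC II-low dura, choroid plexus or microglia 0 of 7 were called, against 3.88%, 9.88% and 27.9% of all genes. Nqo1 was called lower in peritoneal macrophages than in MHC II-high dura, choroid plexus and microglia. Lman1 and Mcfd2, the cargo receptor pair for factors V and VIII, had 259 ± 23.1 and 108 ± 9.86 CPM (SD, n = 4) in peritoneal macrophages. Lman1 was called higher there than in MHC II-low dura (by 1.01 ± 0.10) and choroid plexus (by 1.17 ± 0.10), and Mcfd2 was called lower there than in MHC II-low dura (by 1.03 ± 0.09) and microglia (by 1.00 ± 0.09).

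Of 12 genes listed as anticoagulants or their relatives 6 were tested. Against peritoneal macrophages 3 were higher and 1 lower in MHC II-high dura, 4 higher and 1 lower in MHC II-low dura, and 4 higher and 1 lower in choroid plexus. Of all genes, 20.1% were higher and 9.18% lower in the first of these comparisons, 20% and 11.9% in the second, and 24.1% and 12.6% in the third. The list's median log2 differences were 2.11, 1.98 and 2.62 against 0.10, 0.11 and 0.13 for all genes. Gas6, a vitamin K-dependent ligand related to protein S, averaged 1870 ± 82.5 CPM in the low and 902 ± 63.3 CPM in the high dura population, 859 ± 28.3 CPM in choroid plexus and 304 ± 86 CPM in microglia (SD, n = 4). In peritoneal macrophages it had 4.21 ± 0.602 CPM, lower than in microglia by -6.18 ± 0.18 (adjusted p = 1.77e-16). Gas6 was the only gene of this list called higher in MHC II-low than in MHC II-high dura (-1.05 ± 0.14 for the high over the low population, adjusted p = 6.54e-05). Procr was the only gene of the list called the other way. Anxa5, which shields phospholipid from clotting factors, averaged 602 ± 32.4 CPM in the high and 460 ± 8.35 CPM in the low dura population, 396 ± 9.61 CPM in choroid plexus, 97.9 ± 19.5 CPM in peritoneal macrophages and 44 ± 9.36 CPM in microglia. Of the 4 thrombin and protease receptor genes 3 were tested, and F2r, the main thrombin receptor gene, was called lower in peritoneal macrophages than in each other population (12.2% of all genes were).

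Of the 12 plasminogen enzymes and inhibitors 10 were tested, and 3 were higher and 7 lower in peritoneal macrophages than in microglia (18.9% and 25.7% of all genes), with a median log2 difference of -4.70 against -0.11 for all genes. In choroid plexus 7 were higher and 3 lower than in peritoneal macrophages (24.1% and 12.6% of all genes), with a median of 6.20 against 0.13 for all genes. The comparisons share the peritoneal libraries. Fibroblast markers summed to 456 to 1212 CPM in choroid plexus and at most 1.75 CPM in peritoneal libraries. Serpinb2, the intracellular plasminogen activator inhibitor 2, had 1923, 1739, 2840 and 2067 CPM in peritoneal libraries, at most 1.55 CPM in any other library, and 0 counts in microglia. Serpinb2 passed the filter on low counts through its peritoneal libraries, as F7 and F10 did. Thbs1, the matrix protein thrombospondin 1, had 4418 ± 1225 CPM in peritoneal macrophages (SD, n = 4) and 26 ± 8.24 to 126 ± 15.9 CPM elsewhere. Plat, tissue plasminogen activator, had 0 counts in all 4 peritoneal libraries, where 3 counts would be 0.103 to 0.129 CPM. It had 40.1, 31.3, 43.9 and 124 CPM in choroid plexus, whose replicate 4 also had the most fibroblast markers. Serping1, the C1 inhibitor gene, had 54.1, 49.7, 74.4 and 181 CPM in the same libraries. The part of fibroblast RNA in the differences of this list was not tested. Serpine2, protease nexin 1, which inhibits thrombin and urokinase, had 972, 778, 956 and 842 CPM in microglia, at most 62.6 CPM in any other library and 0.154 ± 0.142 CPM in peritoneal macrophages. Microglia exceeded choroid plexus in Serpine2 by 4.63 ± 0.38 (adjusted p = 1.7e-08). Serpinb6a ranged from 11 ± 6.04 CPM in microglia to 157 ± 18.9 CPM in MHC II-low dura, with 29.3% of its exon bases overlapped by other genes.

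All 10 surface partners of plasminogen and urokinase were tested. Against peritoneal macrophages 1 was higher and 6 lower in MHC II-high dura, 1 higher and 7 lower in MHC II-low dura, and 2 higher and 6 lower in choroid plexus. The shares of all genes were again 20.1% and 9.18%, 20% and 11.9%, and 24.1% and 12.6%. The list's median log2 differences were -2.04, -2.85 and -3.20 against 0.10, 0.11 and 0.13 for all genes. Anxa2 and S100a10, which form the plasminogen-binding annexin complex, had 412 ± 75.5 and 227 ± 52.1 CPM in peritoneal macrophages (SD, n = 4) and 6.98 ± 2.84 and 2.61 ± 0.396 CPM in microglia. Their log2 differences between these populations were 5.88 ± 0.32 (adjusted p = 9.2e-12) and 6.44 ± 0.23 (adjusted p = 3.36e-15). Itgam, the integrin chain that binds fibrinogen and the urokinase receptor, had 4520 ± 860 CPM in peritoneal macrophages and 313 ± 40.4 to 1445 ± 282 CPM elsewhere, but 68.7% of its exon bases overlap another annotated gene. Itgb3, a fibrinogen-binding integrin chain, was highest in microglia, at 90.3 ± 20.7 CPM, above peritoneal macrophages at 26.8 ± 14.4 CPM (adjusted p = 0.000398). Mrc2, a collagen receptor that associates with the urokinase receptor, had 0 counts in the peritoneal libraries and 54.2 ± 12.8 CPM in microglia.

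Among the fibrin-related genes, 4 of 5 were tested. Fn1, fibronectin, a substrate that factor XIII links to fibrin, had 14209, 28808, 10041 and 24465 CPM in peritoneal libraries and at most 84.9 CPM in any other. Peritoneal macrophages exceeded choroid plexus in Fn1 by 12.81 ± 1.02 (adjusted p = 1.27e-08) and MHC II-high dura by 9.07 ± 0.88 (adjusted p = 1.78e-07). Its 4 peritoneal libraries fell in the same order as those of F5, with replicate 2 highest and replicate 3 lowest. Fgl2, a membrane prothrombin-cleaving protein of the fibrinogen family, averaged 798 ± 125 CPM in the high and 354 ± 52.8 CPM in the low dura population and 619 ± 26.1 CPM in choroid plexus (SD, n = 4). It stood at 55.6 ± 46.7 CPM in peritoneal macrophages and 50.3 ± 40.7 CPM in microglia, which were not told apart (adjusted p = 0.799), and was called higher in each of the other 3 populations than in both.

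**Figure D5:**
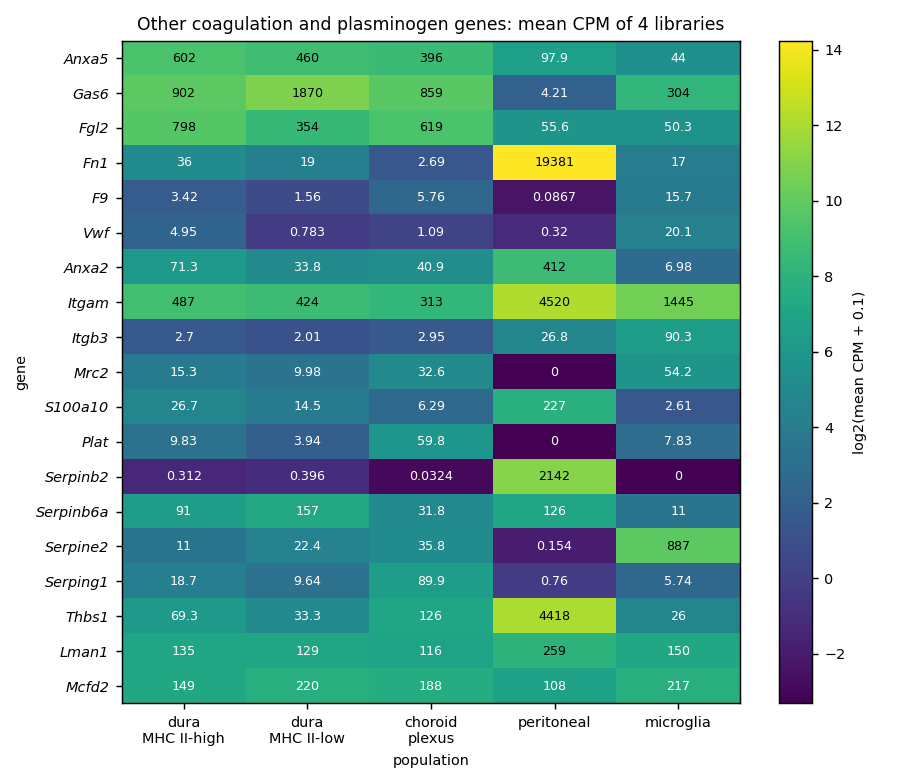
Mean level of 19 other coagulation and plasminogen genes in each population, printed in CPM (mean of 4 libraries) and coloured by log2 of the mean plus 0.1. Fn1, Thbs1, Itgam and Serpinb2 are highest in peritoneal macrophages, at 19381, 4418, 4520 and 2142 CPM, while Mrc2 and Plat are at 0 there, and Serpine2 is highest in microglia at 887 CPM.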

How the data were processed

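The submitters' processing notes name TopHat2 2.1.0, SAMtools 0.1.18, Trimmomatic 0.38 and FastQC 0.11.4, and the mm10 genome. No counter, annotation or strand setting is given in the sources used here, so it is not known how reads from overlapping genes were counted. The deposited unit is the whole-number count of reads per gene symbol, and 5 lines that name no gene were left out (no feature, 5.67 to 13.1%, and ambiguous, 0.836 to 1.51%).

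A single edgeR 4.0.16 fit (R 4.3.3) covered the 20 libraries, with a mean per population, TMM factors of 0.923 to 1.05, filterByExpr and the robust quasi-likelihood F test with 15 residual degrees of freedom. The biological coefficient of variation was 0.302. Standard errors are the log2 fold change over the square root of F. A total of 3 counts in a library correspond to 0.0964 to 0.222 CPM. Replicates differed beyond sampling noise (chi-square per degree of freedom of at least 9.67). The fit was tested on simulated data. Alternatives were DESeq2 1.42.0, RLE factors, other filters, fits of 2 populations, a replicate block, thinned libraries, no fold threshold and each library left out. Positions and exon lengths are from GENCODE M21 (GRCm38), which may not be the authors' annotation.

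The members, gene lists and tests were chosen with earlier results of these data known. Each pathway list names its 2 largest called changes at 10 CPM or more, plus genes at 50 CPM called in 6 comparisons or more. F2r, Procr, Nqo1, F8, the untested genes and the neighbours of F7, F10 and F5 are named besides. Of these, F2r, Procr and Nqo1 were named after their values were seen. Of the genes chosen as markers and neighbours, 2 are not reported here and were left out of the sums.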

Additional observations from a re-analysis of the deposited data

Results flagged for a closer look

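In 6 of the 45 groups of 4 libraries (9 genes in 5 populations) a single library lay far from the other 3. The rule was Dixon's test on the gap to the nearest library. F7 in MHC II-high dura and in choroid plexus, at 0 counts throughout, could not be flagged. Chance gives such a gap in about 1 group in 20 where values are normally distributed. That rate does not apply to F5 and F7 in MHC II-low dura, where the other 3 libraries were all at 0. It need not hold for other low counts. F5 stood at 107 CPM in microglia replicate 3, against 2.13 to 5.96 CPM in the other microglia, and F3 at 20 CPM in the same library, against 3.11 to 4.01 CPM. That library also had 20167 CPM of choroid plexus epithelium markers and 974 CPM of fibroblast markers, and their part in these values was not tested. F3 stood at 104 CPM in choroid plexus replicate 4, against 30.4 to 41.8 CPM in the others. F5 stood at 0.705 CPM in MHC II-low dura replicate 4, against 0 in the others, and F7 at 0.0353 CPM in the same library, a single count, against 0. F13a1 stood at 1.88 CPM in microglia replicate 1, against 0.185 to 0.463 CPM in the others.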

How the results depend on the processing

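Of 618 member values recomputed under the 7 other settings, 614 kept their side of the threshold, 3 lost the call and 1 gained it. No value called in either fit reversed its direction. A change of sign in a value called in neither fit was not counted as a reversal. F10 in MHC II-high dura against choroid plexus was such a value (-0.39 to 0.71 over these settings and the left-out libraries). The 3 lost calls were F3 in MHC II-high dura against choroid plexus, with no filter on low counts (-1.87, adjusted p = 0.0594), in the fit of 2 populations (-1.87, adjusted p = 0.0696) and with the replicate block (-1.86, adjusted p = 0.0539). With no filter and with the replicate block, 0 members were then higher in choroid plexus than in each other population, and leaving out single libraries gave 0 to 1. The gained call was F3 between the dura populations with DESeq2 (1.97, adjusted p = 0.0256). Of 1800 values with a library left out, 1775 kept their side of the threshold, and 16 lost and 8 gained the call. By the same count 1 reversed: F5 in choroid plexus against microglia without microglia replicate 3 (2.60). At the other end of its range the value was -0.77, without microglia replicate 5. Members called between the dura populations numbered 0 in the fit of 2 populations, 2 with DESeq2, 3 with no fold threshold and 1 to 2 with a library left out. Members called in MHC II-high dura against microglia numbered 3 to 5 with a library left out. The fit of 2 populations gave no value for F7 and F10 in 6 comparisons each. The counts of members higher or lower in a single population were not fitted with 2 populations at a time.

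With genes at 10 CPM or more in 4 libraries, fewer genes are tested, and calls over all genes fell to 714, 2429 and 2489 for MHC II-high dura against choroid plexus, peritoneal macrophages and microglia, to 954, 2798 and 2316 for MHC II-low dura against the same, to 2959 for choroid plexus against peritoneal macrophages and to 3888 for peritoneal macrophages against microglia. With no fold threshold they rose to 1530 between the dura populations, 3666, 7581 and 7465 for MHC II-high dura, 4073, 8036 and 7123 for MHC II-low dura, 8762 and 5914 for choroid plexus against peritoneal macrophages and microglia, and 9669 for peritoneal macrophages against microglia. Deviations of same-numbered libraries were weakly correlated (-0.146 to 0.12). Correlations this weak cannot tell whether same-numbered libraries share an animal or a batch, so pairing stays unknown. At this depth, values of F7 outside the peritoneal libraries, and of F10 in MHC II-high dura, choroid plexus and microglia, rest on few counts and their order was not resolved.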
